A study of Mus musculus with 8 samples.

Results

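Collagen chain genes encode the polypeptides that wind around each other into the triple helices of the extracellular matrix. They were taken here as every protein-coding gene whose symbol has the form Col, a type number, the letter a and a chain number, which gave 44 genes of 55487 in the deposited tables. The genes were measured by bulk RNA-seq in 4 mouse tumour cell lines, each derived from a genetically engineered mouse with lung squamous cell carcinoma (LUSC), a cancer of keratin-rich, basal-like epithelial cells. The lines were PLA4 and PLA, here called the PLA lines, and PL12 and PL1, here called the PL lines, with 2 libraries each. The study's subject is the loss of ACKR3, a scavenging receptor for chemokines, and its labels oppose PLA and PL lines. They do not spell out the letters of the names or give a strain, alleles, Cre driver, age or treatment, and do not say whether a line is 1 clone.

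Collagens differ in how they assemble. Fibrillar collagens such as types I, III and V form the banded fibrils of connective tissue and are made mainly by fibroblasts. Type IV collagen forms the sheet of basement membranes, and types VII, XV and XVIII lie at or anchor that sheet. FACIT collagens, the fibril-associated collagens with interrupted triple helices, decorate the surface of fibrils, and transmembrane collagens such as type XVII sit in the plasma membrane, where type XVII is part of the hemidesmosome that fixes basal epithelial cells to the basement membrane. By these roles the 44 genes comprised 11 fibrillar, 9 basement membrane, 9 FACIT and 4 transmembrane chains, and 11 chains of beaded filaments, short-chain networks and other types.

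Genes of type IV chains lie head to head in pairs. Start sites of Col4a1 and Col4a2 are on opposite strands of chromosome 8, at 11312826 and 11312805, so that the genes overlap by 22 bases. Those of Col4a4 and Col4a3 on chromosome 1 are 72 bases apart, and those of Col4a6 and Col4a5 on chromosome X are 1309 bases apart. The windows shown run from 250 bases before to 50 bases after a start site (RefSeq, GRCm38.p6, each on the strand of its own gene) for 2 of these pairs, for Col17a1, which had the highest level, and for Col20a1, which passed in all 4 comparisons of a PLA with a PL line. Capitals mark matches on either strand to the TATA box (searched as TATAAA), the CCAAT box (by those letters), the GC box (as GGGCGG) and the AP-1 site (as TGANTCA), and no matches overlap in these windows. The windows lie at chr8:11312777-11313076 (Col4a1, minus strand), chr8:11312555-11312854 (Col4a2, plus strand), chr1:82586800-82587099 (Col4a4, minus strand, which also holds the start of Col4a3), chr19:47691993-47692292 (Col17a1, minus strand) and chr2:180986285-180986584 (Col20a1, plus strand).
Col4a1: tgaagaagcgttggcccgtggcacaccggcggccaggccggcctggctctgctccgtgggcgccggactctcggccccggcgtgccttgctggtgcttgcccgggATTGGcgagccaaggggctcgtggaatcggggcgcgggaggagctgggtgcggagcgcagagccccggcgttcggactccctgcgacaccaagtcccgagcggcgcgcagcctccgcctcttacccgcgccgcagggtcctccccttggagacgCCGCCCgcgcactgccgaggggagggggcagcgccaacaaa
Col4a2: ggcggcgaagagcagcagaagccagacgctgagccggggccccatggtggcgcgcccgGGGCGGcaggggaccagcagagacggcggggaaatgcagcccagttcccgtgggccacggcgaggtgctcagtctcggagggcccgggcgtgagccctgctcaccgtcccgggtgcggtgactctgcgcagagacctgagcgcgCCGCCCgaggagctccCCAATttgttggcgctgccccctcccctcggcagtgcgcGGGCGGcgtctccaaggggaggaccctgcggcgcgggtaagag
Col4a4: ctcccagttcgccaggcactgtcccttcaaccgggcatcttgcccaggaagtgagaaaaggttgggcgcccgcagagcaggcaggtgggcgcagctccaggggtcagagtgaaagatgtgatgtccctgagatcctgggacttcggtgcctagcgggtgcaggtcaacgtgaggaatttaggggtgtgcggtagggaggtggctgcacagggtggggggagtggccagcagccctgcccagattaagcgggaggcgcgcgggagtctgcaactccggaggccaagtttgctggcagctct
Col17a1: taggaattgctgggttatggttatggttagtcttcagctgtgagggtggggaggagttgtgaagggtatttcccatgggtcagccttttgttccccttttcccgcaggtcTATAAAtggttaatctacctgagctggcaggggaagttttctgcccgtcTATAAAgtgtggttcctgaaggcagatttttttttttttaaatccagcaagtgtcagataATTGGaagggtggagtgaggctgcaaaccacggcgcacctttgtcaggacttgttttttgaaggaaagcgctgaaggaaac
Col20a1: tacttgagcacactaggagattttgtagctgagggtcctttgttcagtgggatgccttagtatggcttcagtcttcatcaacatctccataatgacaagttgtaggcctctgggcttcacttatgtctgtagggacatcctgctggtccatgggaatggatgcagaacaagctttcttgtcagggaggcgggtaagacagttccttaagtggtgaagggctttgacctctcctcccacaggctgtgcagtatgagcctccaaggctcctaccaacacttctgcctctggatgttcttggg

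The partly overlapping windows of Col4a1 and Col4a2 were rich in G and C (74.0% and 73.7%, with 37 and 33 CG dinucleotides), against a median of 52.7% and 7 CG dinucleotides over 32851 windows of all genes. The Col4a4 window stood at 63.3% with 14 CG dinucleotides and held none of the 4 motifs. Col17a1 had 46.3% and 5 CG dinucleotides and 2 TATAAA matches, at 140 and 91 bases before its RefSeq start (-140 and -91). In GENCODE the gene begins further upstream, at 47692094, so these distances hold for the RefSeq start only. TATAAA was found in 13.6% of all windows and in 5 of 38 windows of 35 collagen genes. CCAAT was found in 37.4% of all and 13 collagen windows, GGGCGG in 35.7% and 23, and TGANTCA in 7.81% and 1. Col20a1 had 1 CG dinucleotide and no match.

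Levels are given as TPM, a unit of transcript abundance scaled to gene length and to a fixed total per library, as the authors deposited them, always for replicates 1 and 2 in that order. Tests used the deposited expected counts. The labels do not say whether a line's 2 libraries are of separate cultures, so a p-value here speaks of library spread only, and that spread may be technical. Libraries held 48857960 to 142458281 counts, so that the limit of 3 counts corresponds to 0.0208 to 0.0614 CPM (counts scaled to library size). Ackr3 was at 1.61 and 1.25 TPM in PLA4, 0.22 and 0.17 TPM in PLA, 12.6 and 13.8 TPM in PL12, and 45.6 and 19.6 TPM in PL1, lower in every PLA library than in every PL library. All 8 epithelial and squamous markers, among them Epcam, Cdh1 and Krt5, were at 1 TPM or more in every library. Of the 8 immune markers, the pan-leukocyte marker Ptprc stayed at or under 0.01 TPM, while others such as Cd68 reached 41.0 TPM in PLA. The 7 endothelial markers summed to at most 1.19 TPM. Libraries of PLA4 and of PL1 stood apart from each other more than those of PLA and PL12: of the collagen genes at 1 TPM or more in a line, over 2-fold differences between its libraries were seen in 6 of 17 in PLA4, 0 of 12 in PLA, 0 of 13 in PL12 and 15 of 21 in PL1. The share of all genes over 2-fold apart was not counted. Over all genes with 20 counts or more in a line, the median chi-square between its libraries was 38.3 in PLA4, 1.76 in PLA, 3.91 in PL12 and 22.2 in PL1. Even the libraries of PLA, the closest pair, thus differed by more than counting error, and each was kept as a library of its own.

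Collagen RNA in these lines was mostly that of 3 chains of the zone where epithelium meets basement membrane. Col17a1, Col18a1 and Col7a1 together held 88.2% and 90.7% of all collagen TPM in PLA4, 89.2% and 89.0% in PLA, 76.3% and 79.3% in PL12, and 95.3% and 66.7% in PL1. All collagen genes summed to 1133 and 1674 TPM in PLA4, 709 and 716 TPM in PLA, 229 and 251 TPM in PL12, and 951 and 520 TPM in PL1. PL12 was thus lowest in both libraries and PLA4 highest. Only 6 of the 44 genes (Col17a1, Col18a1, Col7a1, Col4a5, Col12a1 and Col15a1) reached 1 TPM in all 8 libraries, 24 did so in at least 1 library, and 11 to 19 did so per library. A group of 9 genes stayed under 10 counts everywhere, and 3 of them (Col9a1, Col6a5 and Col6a6) were listed at 0 TPM in every library, with at most 1 count in any.

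**Figure D1:**
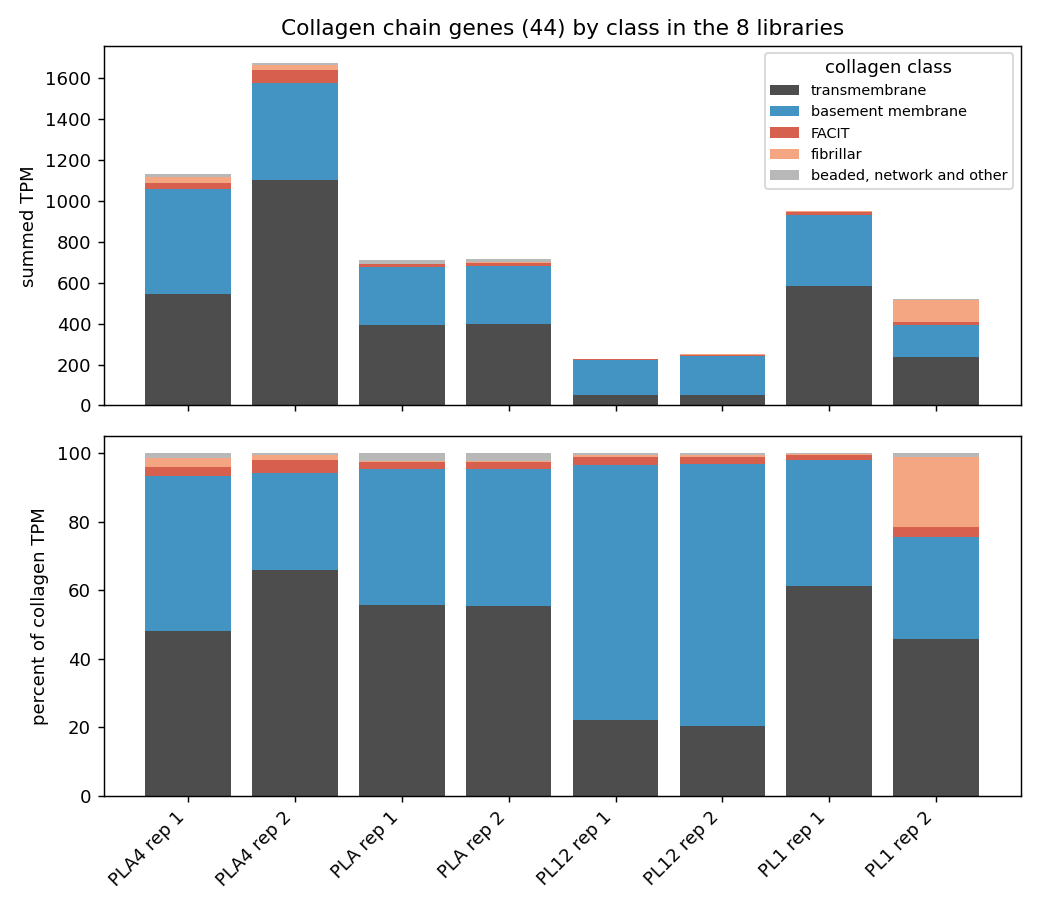
Summed TPM of the 44 collagen chain genes in each library (top) and each class as a percent of the collagen total (bottom), with PLA4 and PLA left of PL12 and PL1. Basement membrane chains made up 74.4% and 76.7% of the collagen total in PL12, and fibrillar chains 20.4% in PL1 replicate 2.

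Transmembrane chains held 48.2% and 65.8% of collagen TPM in PLA4, 55.6% and 55.4% in PLA, 22.1% and 20.3% in PL12, and 61.3% and 45.8% in PL1, nearly all of it from 1 gene. Col17a1 (ENSMUSG00000025064.15, GRCm38 chromosome 19, 47646344 to 47692094) encodes the type XVII chain, also known as the bullous pemphigoid antigen BP180. It stood at 545 and 1102 TPM in PLA4, 394 and 397 TPM in PLA, 50.5 and 50.8 TPM in PL12, and 583 and 238 TPM in PL1. Every library of the other 3 lines lay above both PL12 libraries. The log2 fold change was 3.93 ± 0.550 for PLA4 minus PL12 (SE, edgeR quasi-likelihood test, adjusted p = 0.00368), 2.86 ± 0.524 for PLA minus PL12 (edgeR, adjusted p = 0.00796) and -2.93 ± 0.526 for PL12 minus PL1 (edgeR, adjusted p = 0.0124). PLA4, PLA and PL1 did not differ from each other beyond their spread, with edgeR adjusted p between 0.150 and 0.924. Summed TPM of the 8 epithelial and squamous markers moved along with it, at 11619 and 12962 in PLA4, 9131 and 9045 in PLA, 1587 and 1599 in PL12, and 12291 and 6104 in PL1, and their part in the result was not tested. Among them Trp63, the master regulator of basal epithelium, was at 8.80 and 8.37 TPM in PL12 and at 102 to 130 TPM in the other lines. Most of the sum came from Krt14 and Krt5, and not every marker was lowest in PL12. Epcam was at 241 and 139 TPM in PLA4, 396 and 389 TPM in PLA, 320 and 314 TPM in PL12, and 148 and 139 TPM in PL1. Cdh1 did not differ among lines (edgeR F test, adjusted p = 0.594). The remaining transmembrane chains, Col13a1, Col23a1 and Col25a1, stayed at or under 0.53 TPM.

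**Figure D2:**
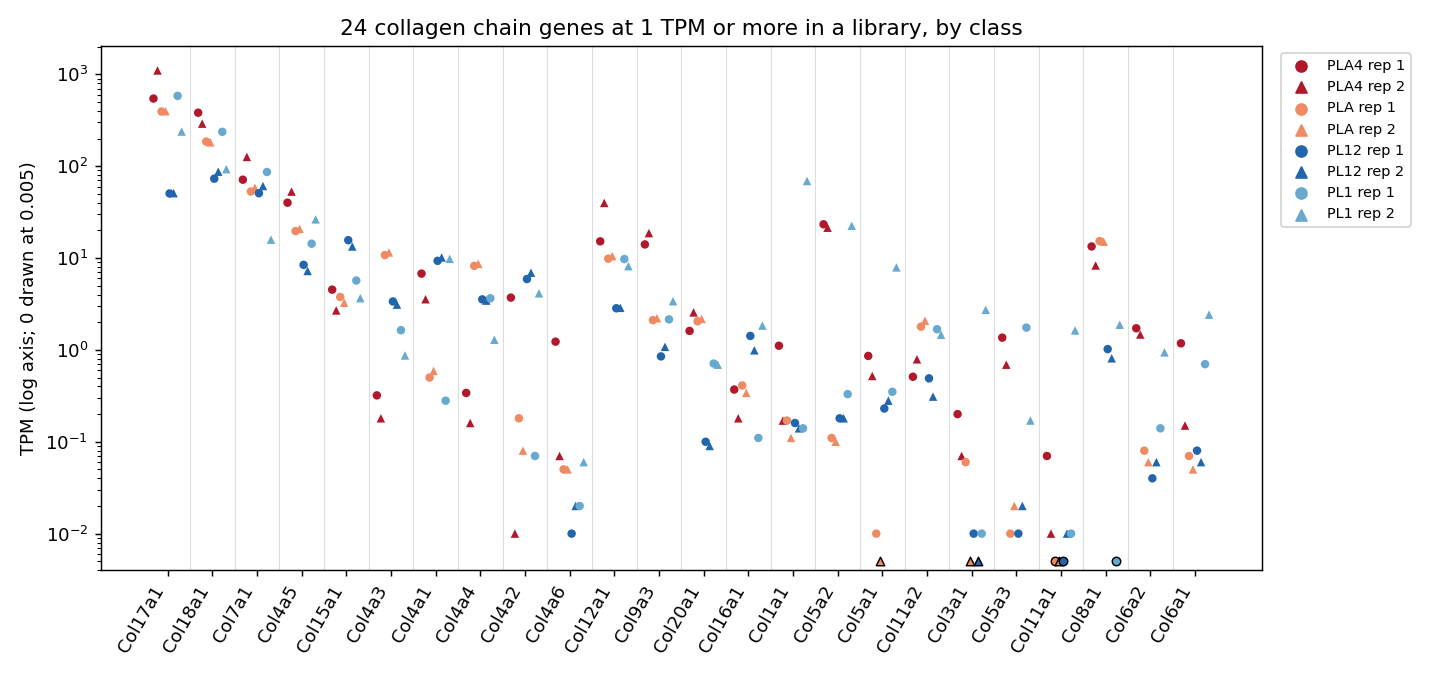
TPM on a log axis of the 24 collagen chain genes at 1 TPM or more in a library, ordered by class (transmembrane, basement membrane, FACIT, fibrillar, then beaded, network and other), 1 point per library, with 0 drawn at 0.005. Col17a1 lies at 238 TPM or more in PLA4, PLA and PL1 and near 51 TPM in PL12, and Col1a1 is above 1.11 TPM in PL1 replicate 2 alone.

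Among basement membrane chains the multiplexin Col18a1 and the anchoring fibril chain Col7a1 were the most abundant. Col18a1 (chromosome 10, 77052178 to 77166548), a heparan sulfate proteoglycan chain whose end can be cleaved off as endostatin, was at 382 and 291 TPM in PLA4, 185 and 182 TPM in PLA, 73.1 and 87.1 TPM in PL12, and 237 and 92.8 TPM in PL1. It was higher in PLA4 than in PL12 by 1.92 ± 0.445 on the log2 scale (SE, edgeR, adjusted p = 0.0184), and no other pair of lines passed. Col7a1, which forms the fibrils that tie basement membrane to the underlying matrix, was at 71.3 and 126 TPM in PLA4, 53.1 and 58.3 TPM in PLA, 50.8 and 60.8 TPM in PL12, and 86.5 and 15.9 TPM in PL1. The libraries of PL1 lay on both sides of all PLA and PL12 libraries, and no difference among lines passed (edgeR F test, adjusted p = 0.459). Col15a1, the other multiplexin, was at 4.53 and 2.69 TPM in PLA4, 3.77 and 3.26 TPM in PLA, 15.6 and 13.4 TPM in PL12, and 5.69 and 3.66 TPM in PL1. It was the reverse of Col17a1 in that PL12 was highest, with log2 differences of -2.02 ± 0.308 for PLA4 minus PL12 (adjusted p = 0.00480), -2.15 ± 0.310 for PLA minus PL12 (adjusted p = 0.00349) and 1.69 ± 0.305 for PL12 minus PL1 (adjusted p = 0.0127, SE, edgeR).

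Type IV chains assemble as a widespread network of the Col4a1 and Col4a2 products, a network of the Col4a3, Col4a4 and Col4a5 products known from kidney glomeruli and lung alveoli, and a network of the Col4a5 and Col4a6 products known from skin and smooth muscle. Col4a5 was the most abundant of the 6, at 40.1 and 52.9 TPM in PLA4, 19.7 and 20.8 TPM in PLA, 8.43 and 7.23 TPM in PL12, and 14.3 and 26.4 TPM in PL1. It was higher in PLA4 than in PLA by 1.19 ± 0.279 (adjusted p = 0.0231), than in PL12 by 2.56 ± 0.292 (adjusted p = 0.00200) and than in PL1 by 1.21 ± 0.280 on the log2 scale (adjusted p = 0.0499, SE, edgeR). The last of these sat at the threshold and passed in 6 of 16 alternative settings. PLA exceeded PL12 by 1.36 ± 0.281 (SE, edgeR, adjusted p = 0.0118), while PLA and PL1 gave a difference of 0.01 ± 0.276 (adjusted p = 0.980).

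Col4a3 and Col4a4, whose starts both lie in the Col4a4 window, ran in parallel across the lines and separated the PLA lines from each other. Col4a3 was at 0.32 and 0.18 TPM in PLA4, 10.8 and 11.5 TPM in PLA, 3.37 and 3.11 TPM in PL12, and 1.64 and 0.87 TPM in PL1. Col4a4 was at 0.34 and 0.16 TPM in PLA4, 8.22 and 8.65 TPM in PLA, 3.55 and 3.44 TPM in PL12, and 3.65 and 1.29 TPM in PL1. For both genes every PLA4 library lay below, and every PLA library above, all PL libraries. In PLA4 minus PLA the log2 fold change was -5.40 ± 0.502 for Col4a3 (adjusted p = 0.00165) and -5.14 ± 0.631 for Col4a4 (adjusted p = 0.00344, SE, edgeR). Col4a3 was also higher in PLA than in PL12, by 1.74 ± 0.426 (adjusted p = 0.0210), and than in PL1, by 3.16 ± 0.450 (adjusted p = 0.00502), and lower in PLA4 than in PL12 and PL1, by -3.66 ± 0.464 and -2.24 ± 0.440 (adjusted p = 0.00269 and 0.0349, SE, edgeR). Col4a4 was lower in PLA4 than in PL12 and PL1 as well (-3.94 ± 0.598 and -3.36 ± 0.583, edgeR, adjusted p = 0.00475 and 0.0262), but PLA did not pass against either (adjusted p = 0.123 and 0.0530). The exons of Col4a3 share 563 of 9967 bases with a non-coding transcript on the opposite strand, and the library kit does not mark strand.

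Col4a1 and Col4a2 differed between the libraries of PL1 and between those of PLA4. Col4a1 was at 6.77 and 3.56 TPM in PLA4, 0.50 and 0.59 TPM in PLA, 9.33 and 10.1 TPM in PL12, and 0.28 and 9.79 TPM in PL1. Col4a2 was at 3.71 and 0.01 TPM in PLA4, 0.18 and 0.08 TPM in PLA, 5.91 and 6.92 TPM in PL12, and 0.07 and 4.13 TPM in PL1. Both genes were high in PLA4 replicate 1, both PL12 libraries and PL1 replicate 2, and Col4a2 was low in the other 4 libraries. In expected counts, Col4a1 and Col4a2 had 570 and 9 in PLA4 replicate 2, against 2876 and 2051 in PLA4 replicate 1. Col4a1 thus stood at 22.3 and 3.95 CPM in the PLA4 libraries, a wider gap than in TPM, which is also divided by the transcript length estimated for each library. In the fit, Col4a1 was lower in PLA than in PL12 (-6.14 ± 1.80, SE, edgeR, adjusted p = 0.0380), a call made in 10 of 16 alternatives. No pair of lines passed for Col4a2. The edgeR F test among lines passed for neither gene (adjusted p = 0.103 for Col4a1 and 0.270 for Col4a2). Col4a6 was at 1.23 and 0.07 TPM in PLA4, 0.05 and 0.05 TPM in PLA, 0.01 and 0.02 TPM in PL12, and 0.02 and 0.06 TPM in PL1, so that 1 library carried its level. It passed for PLA4 minus PL12 (5.37 ± 1.43, SE, edgeR, adjusted p = 0.0289), a call made in 8 of 14 alternatives.

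The libraries that were high in Col4a2 were also those high in 2 genes chosen after their values were seen. Serpinh1, the collagen chaperone HSP47, was at 50.8 and 0.40 TPM in PLA4, 0.05 and 0.04 TPM in PLA, 33.3 and 35.1 TPM in PL12, and 0.16 and 32.0 TPM in PL1. Vim, the intermediate filament of mesenchymal cells, was at 59.2 and 0.19 TPM in PLA4, 0.02 and 0.03 TPM in PLA, 9.36 and 10.6 TPM in PL12, and 0.38 and 43.1 TPM in PL1. Neither passed among lines (edgeR F test, adjusted p = 0.178 for Serpinh1 and 0.159 for Vim), and their 2 libraries of PLA4 and of PL1 differed as far as the lines did.

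**Figure D3:**
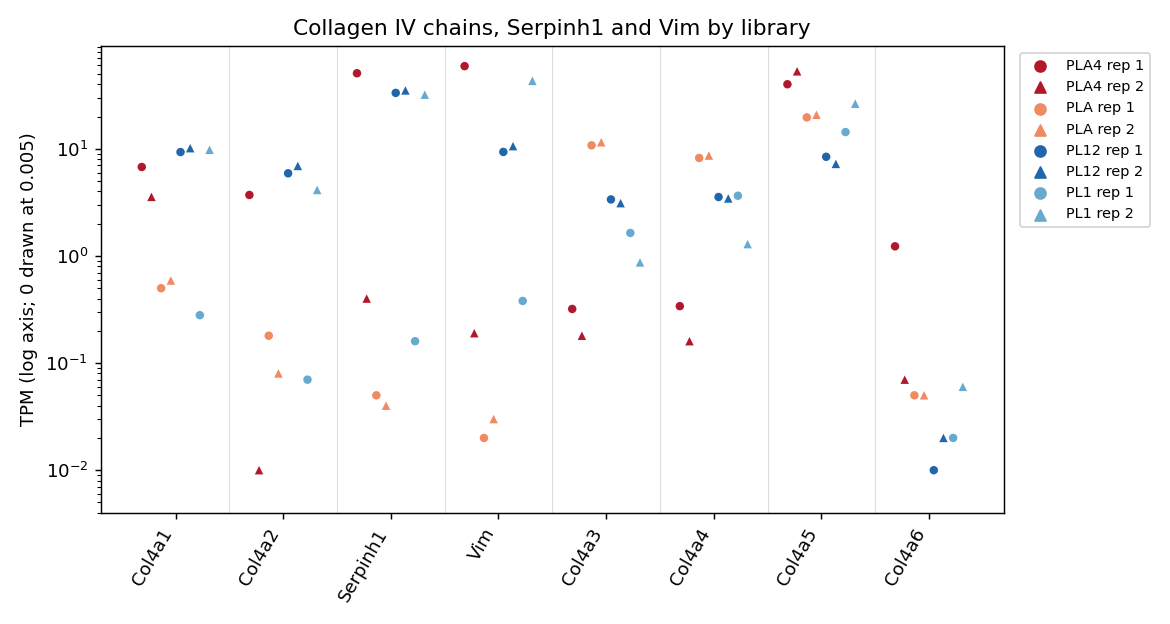
TPM on a log axis of the 6 type IV collagen chain genes, Serpinh1 and Vim, 1 point per library, PLA4 and PLA left of PL12 and PL1. Col4a2, Serpinh1 and Vim are high in the same 4 libraries (PLA4 replicate 1, both of PL12 and PL1 replicate 2), while Col4a3 and Col4a4 are at 0.34 TPM or less in PLA4 and at 8.22 TPM or more in PLA.

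Fibrillar chains, the collagens of connective tissue, made up a small share: 2.49% and 1.44% of collagen TPM in PLA4, 0.423% and 0.422% in PLA, 0.665% and 0.590% in PL12, and 0.509% and 20.4% in PL1. Col5a2, a type V chain that takes part in starting fibrils, was the main fibrillar chain of PLA4. It was at 23.3 and 21.4 TPM in PLA4, 0.11 and 0.10 TPM in PLA, 0.18 and 0.18 TPM in PL12, and 0.33 and 22.4 TPM in PL1. Both PLA4 libraries and PL1 replicate 2 thus stood far above the other 5 libraries. The log2 fold change was 7.74 ± 2.14 for PLA4 minus PLA (adjusted p = 0.0388) and 7.05 ± 2.09 for PLA4 minus PL12 (adjusted p = 0.0404, SE, edgeR), while PLA4 minus PL1 gave 1.05 ± 1.58 (adjusted p = 0.707). Each of the first 2 calls was made in 9 of 16 alternatives, with edgeR adjusted p up to 0.195 without a PLA library and 0.200 without a PL12 library.

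The other type V chains had patterns of their own. Col5a1 was at 0.86 and 0.52 TPM in PLA4, 0.01 and 0.00 TPM in PLA (4 and 2 counts), 0.23 and 0.28 TPM in PL12, and 0.35 and 7.91 TPM in PL1. PLA was lowest, at a log2 fold change of 6.60 ± 1.69 for PLA4 minus PLA (adjusted p = 0.0307) and -9.23 ± 1.83 for PLA minus PL1 (adjusted p = 0.0148, SE, edgeR). The call for PLA4 minus PLA was made in 8 of 16 alternatives, with adjusted p up to 0.512 in limma on log2(TPM + 1). Col5a3 was at 1.36 and 0.69 TPM in PLA4, 0.01 and 0.02 TPM in PLA, 0.01 and 0.02 TPM in PL12, and 1.75 and 0.17 TPM in PL1. Unlike Col5a1 and Col5a2, it was higher in replicate 1 than in replicate 2 of PL1. It was higher in PLA4 than in PLA by 6.58 ± 1.28 (adjusted p = 0.0130) and than in PL12 by 5.99 ± 1.26 (adjusted p = 0.0135), and lower in PL12 than in PL1 by -5.93 ± 1.26 (adjusted p = 0.0206, SE, edgeR).

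Col1a1, the main chain of type I collagen, was at 1.11 and 0.17 TPM in PLA4, 0.17 and 0.11 TPM in PLA, 0.16 and 0.14 TPM in PL12, and 0.14 and 69.0 TPM in PL1. Its level in PL1 replicate 2 was 13.3% of all collagen TPM there, and no other library exceeded 0.0980%. Col1a2, the partner chain in the usual type I molecule, was not raised with it, at 20 expected counts in PL1 replicate 2 beside 28813 of Col1a1. Col3a1, the reticular fibre chain, was at 0.20 and 0.07 TPM in PLA4, 0.06 and 0.00 TPM in PLA, 0.01 and 0.00 TPM in PL12, and 0.01 and 2.73 TPM in PL1. Col11a1, a cartilage fibril chain, was at 0.07 and 0.01 TPM in PLA4, listed at 0 in PLA, at 0.00 and 0.01 TPM in PL12, and at 0.01 and 1.63 TPM in PL1. No pair of lines passed for these 3 genes or for Col1a2, although Col1a1 and Col3a1 passed among the 4 lines (edgeR F test, adjusted p = 0.0385 and 0.0411). Those calls were made in 6 of 16 and 5 of 14 alternatives.

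Col11a2, the other type XI chain with a level, was at 0.51 and 0.79 TPM in PLA4, 1.79 and 2.08 TPM in PLA, 0.49 and 0.31 TPM in PL12, and 1.68 and 1.46 TPM in PL1, so PLA and PL1 were high and PLA4 and PL12 low. The log2 fold change was -1.63 ± 0.302 for PLA4 minus PLA (adjusted p = 0.0113), 2.31 ± 0.311 for PLA minus PL12 (adjusted p = 0.00285), -1.38 ± 0.300 for PLA4 minus PL1 (adjusted p = 0.0432) and -2.06 ± 0.308 for PL12 minus PL1 (adjusted p = 0.00729, SE, edgeR). The call for PLA4 minus PL1 was made in 7 of 16 alternatives. Of the other fibrillar chains, Col2a1 of cartilage peaked at 0.83 TPM and Col27a1 at 0.43 TPM, and Col24a1 had at most 3 counts. Col2a1 was lowest in PL12, as Col17a1 was (-2.67 ± 0.360 for PL12 minus PL1, SE, edgeR, adjusted p = 0.00541), and Col27a1 was highest in PL12 (3.08 ± 0.647 for PL12 minus PL1, adjusted p = 0.0198). In PLA, Col27a1 had 1 and 2 counts.

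FACIT chains summed to 31.5 and 61.3 TPM in PLA4, 14.5 and 15.3 TPM in PLA, 5.23 and 5.06 TPM in PL12, and 12.8 and 14.4 TPM in PL1. Col12a1, which binds type I fibrils, was the most abundant, at 15.2 and 39.8 TPM in PLA4, 9.84 and 10.5 TPM in PLA, 2.84 and 2.87 TPM in PL12, and 9.75 and 8.16 TPM in PL1. PL12 was again the lowest line, with log2 fold changes of 3.30 ± 0.421 for PLA4 minus PL12 (adjusted p = 0.00275), 1.87 ± 0.398 for PLA minus PL12 (adjusted p = 0.0133) and -1.68 ± 0.396 for PL12 minus PL1 (adjusted p = 0.0280, SE, edgeR). Col9a3, a chain of the type IX collagen of cartilage, was at 14.1 and 18.7 TPM in PLA4, 2.11 and 2.21 TPM in PLA, 0.85 and 1.08 TPM in PL12, and 2.15 and 3.39 TPM in PL1. It was higher in PLA4 than in every other line: by 3.55 ± 0.289 than in PLA (adjusted p = 0.00111), by 4.52 ± 0.305 than in PL12 (adjusted p = 0.000492) and by 2.82 ± 0.279 than in PL1 (adjusted p = 0.00616, SE, edgeR). These 3 calls were made in all 16 alternatives, while its partner chains Col9a1 and Col9a2 stayed at or under 1 and 49 counts. Exons of Col9a3 share 234 of 3853 bases with Tcfl5 on the opposite strand, so part of its reads could be of either gene.

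Col20a1, a FACIT chain, and Col16a1, another, were low but differed in kind. Col20a1 (chromosome 2, 180986535 to 181018363) was at 1.61 and 2.56 TPM in PLA4, 2.05 and 2.17 TPM in PLA, 0.10 and 0.09 TPM in PL12, and 0.71 and 0.69 TPM in PL1. Col16a1 was at 0.37 and 0.18 TPM in PLA4, 0.41 and 0.34 TPM in PLA, 1.42 and 0.99 TPM in PL12, and 0.11 and 1.84 TPM in PL1. For Col20a1 every PLA library lay above every PL library, while for Col16a1 PL1 replicate 1 lay below all PLA libraries. The other FACIT chains stayed under 0.5 TPM.

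Among the chains of beaded filaments and networks, only Col8a1, Col6a1 and Col6a2 reached 1 TPM in a library. Col8a1, which builds the hexagonal network of type VIII collagen, was at 13.4 and 8.30 TPM in PLA4, 15.3 and 15.1 TPM in PLA, 1.02 and 0.81 TPM in PL12, and 0.00 and 1.88 TPM in PL1. Every PLA library lay above every PL library. The type VI chain Col6a1 was at 1.18 and 0.15 TPM in PLA4, 0.07 and 0.05 TPM in PLA, 0.08 and 0.06 TPM in PL12, and 0.70 and 2.42 TPM in PL1. Its partner Col6a2 was at 1.72 and 1.47 TPM in PLA4, 0.08 and 0.06 TPM in PLA, 0.04 and 0.06 TPM in PL12, and 0.14 and 0.94 TPM in PL1. Both were lowest in PLA and PL12, and Col6a2 was higher in PLA4 than in PLA by 4.55 ± 0.857 (adjusted p = 0.0118) and than in PL12 by 4.87 ± 0.884 (adjusted p = 0.00826, SE, edgeR). Col6a3, the third chain of the common type VI molecule, had 154 counts in PL1 replicate 2 and at most 3 elsewhere.

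Few collagen genes separated the PLA from the PL lines, the contrast that the labels of this study of ACKR3 loss draw. With 2 lines on each side, ACKR3 loss and other differences between the lines cannot be told apart. With the line as the unit and counts summed per line, edgeR called 0 of 32 collagen genes tested, as it called 0% of 18859 genes (at an unadjusted p under 0.05 there were 2 collagen genes and 867 genes in all). The 2 collagen genes were Col8a1, at a log2 fold change of 3.74 ± 0.402, and Col16a1, at -1.85 ± 0.649 (SE, edgeR, adjusted p = 0.852 for both). DESeq2 called both and no other member (adjusted p = 1.21e-12 and 0.0113), among 354 of 18859 genes in all. On single libraries neither passed in any pair of a PLA and a PL line. There, edgeR adjusted p ran from 0.105 to 0.200 for Col8a1 and from 0.281 to 0.536 for Col16a1. Col8a1, with 0 and 683 counts in PL1, did not pass among the 4 lines either (edgeR F test, adjusted p = 0.116). The median log2 fold change was 0.60 over the 32 collagen genes, 21 of them positive, and 0.04 over all genes tested. The filter on low counts kept some of the 32 through the lines where they were high, so this median is only a description.

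On single libraries, 1 of 29 collagen genes tested passed with 1 sign in all 4 pairs of a PLA and a PL line, against 1.99% of 18648 genes (1 higher against 1.23%, and 0 lower against 0.767%). It was Col20a1, with log2 fold changes of 4.58 ± 0.395 for PLA4 minus PL12, 1.65 ± 0.341 for PLA4 minus PL1, 4.48 ± 0.394 for PLA minus PL12 and 1.56 ± 0.340 for PLA minus PL1 (SE, edgeR, largest adjusted p = 0.0380). It had 16 to 1093 counts per library, and 79 of its 5142 exon bases lie in another annotated transcript of the same strand. The call was made in 9 of 16 alternatives and was lost, among others, without any 1 library of PLA or PL12 or either library of PL1, with the largest adjusted p running from 7.66e-05 to 0.131. By CPM, Col8a1 and Col20a1 were the 2 of 29 members with every PLA library above every PL library, a separation seen in 8.56% of all genes, and 0 of 29 had the reverse, seen in 7.18%. By TPM, Col12a1 also separated, narrowly, but its 68.9 CPM in PLA replicate 1 lay under the 70.3 CPM of PL1 replicate 1. The single comparisons share lines and are not independent: PLA4 minus PL12 called 15 of 29 members (36% of all genes), PLA4 minus PL1 6 (8.54%), PLA minus PL12 11 (37.7%) and PLA minus PL1 7 (27.3%). In PLA4 minus PL12, 11 were higher (19.2%) and 4 lower (16.8%), and in PLA4 minus PL1, 3 were higher (4.61%) and 3 lower (3.93%). In PLA minus PL12, 8 were higher (20.4%) and 3 lower (17.3%), and in PLA minus PL1, 2 were higher (14.4%) and 5 lower (13%). Some called members passed the filter on low counts through other lines. Col4a6 and Col5a3 had at most 8 counts in a PL12 library. Col5a1, Col5a3 and Col27a1 had at most 6 in a PLA library. The counts called in the single comparisons are therefore only a description.

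Differences among the lines were common, in collagen genes as in all genes, and mostly did not follow the names PLA and PL. Any difference among the 4 lines was called for 20 of 29 collagen genes (edgeR F test), against 52.9% of all genes tested. The filter on low counts kept some members through the line where they were high, so this count is only a description. By class the called genes were 8 of 10 fibrillar, 6 of 9 basement membrane, 3 of 4 FACIT, 1 of 2 transmembrane and 2 of 4 other chains tested. The count was 12 to 28 with 1 library left out, lowest without a PL12 library, while that of all genes, 9866 of 18648, was 4291 to 10992, and 10 of the 20 passed in all 16 alternatives.

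Within the PLA lines, PLA4 had more collagen expression of several kinds than PLA, and less of the Col4a3 and Col4a4 pair. In PLA4 minus PLA, 11 of 29 collagen genes were called (29% of all genes). The 8 that were higher (14.1% of all genes) were the fibrillar Col5a1, Col5a2, Col5a3 and Col27a1, the FACIT chains Col9a3 and Col12a1, Col4a5 and Col6a2. The 3 that were lower (14.9% of all genes) were Col4a3, Col4a4 and Col11a2. Log2 fold changes ran from -5.40 for Col4a3 to 7.74 for Col5a2, and the change of Col12a1 was 1.43 ± 0.392 (SE, edgeR, adjusted p = 0.0380). Over the 29 genes the median was 2.50, with 23 positive, against 0.04 over all genes. Col5a1, Col5a3, Col11a1 and Col27a1 had at most 6 counts in a PLA library and passed the filter on low counts through other lines. The median, the signs and the count called are therefore only a description. Col4a3, Col4a4 and Col9a3 passed in all 16 alternatives. The count fell to 3 without either PLA library and to 7 without either PL12 library, and was 27 without PL1 replicate 1 and PLA4 replicate 2 and 21 without their counterparts. The count over all genes, 5414 of 18648, moved likewise, to 1079 and 1051 without PLA replicate 1 and 2, 3503 and 3533 without PL12 replicate 1 and 2, and 10733 and 10981 without those pairs.

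Within the PL lines, more collagen genes were lower than higher in PL12. In PL12 minus PL1, 12 of 29 collagen genes were called (23.7% of all genes). The 10 that were lower in PL12 (12.5% of all genes) were Col17a1, Col12a1, Col9a3, Col20a1, Col4a5, Col2a1, Col5a3, Col6a1, Col6a2 and Col11a2, and the 2 that were higher (11.2% of all genes) were Col15a1 and Col27a1. Col20a1 was lower by -2.92 ± 0.372 (SE, edgeR, adjusted p = 0.00450) and Col9a3 by -1.70 ± 0.274 (adjusted p = 0.00902). The type VI chains Col6a1 and Col6a2 were lower by -4.42 ± 1.12 (adjusted p = 0.0345) and -3.28 ± 0.836 (adjusted p = 0.0352, SE, edgeR). The call was made in 9 of 16 alternatives for Col6a1 and in 8 of 16 for Col6a2. Over the 29 genes the median was -1.68, with 19 negative, against -0.03 over all genes. Col1a2, Col3a1, Col5a3 and Col11a1 had at most 7 counts in a PL12 library and passed the filter on low counts through other lines. Here too the median, the signs and the count called are only a description. Col20a1 alone passed in all 16 alternatives. The count fell to 1 without either PL12 library and to 6 without either PLA library, and was 21 without PL1 replicate 1, 27 with PLA4 replicate 2 also left out, and 19 without PL1 replicate 2 and PLA4 replicate 1. Over all genes it was 4419 of 18648, with 763 and 804 without PL12 replicate 1 and 2, 2049 and 2055 without PLA replicate 1 and 2, 3688 without PL1 replicate 1, and 10066 and 9927 without those pairs.

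**Figure D4:**
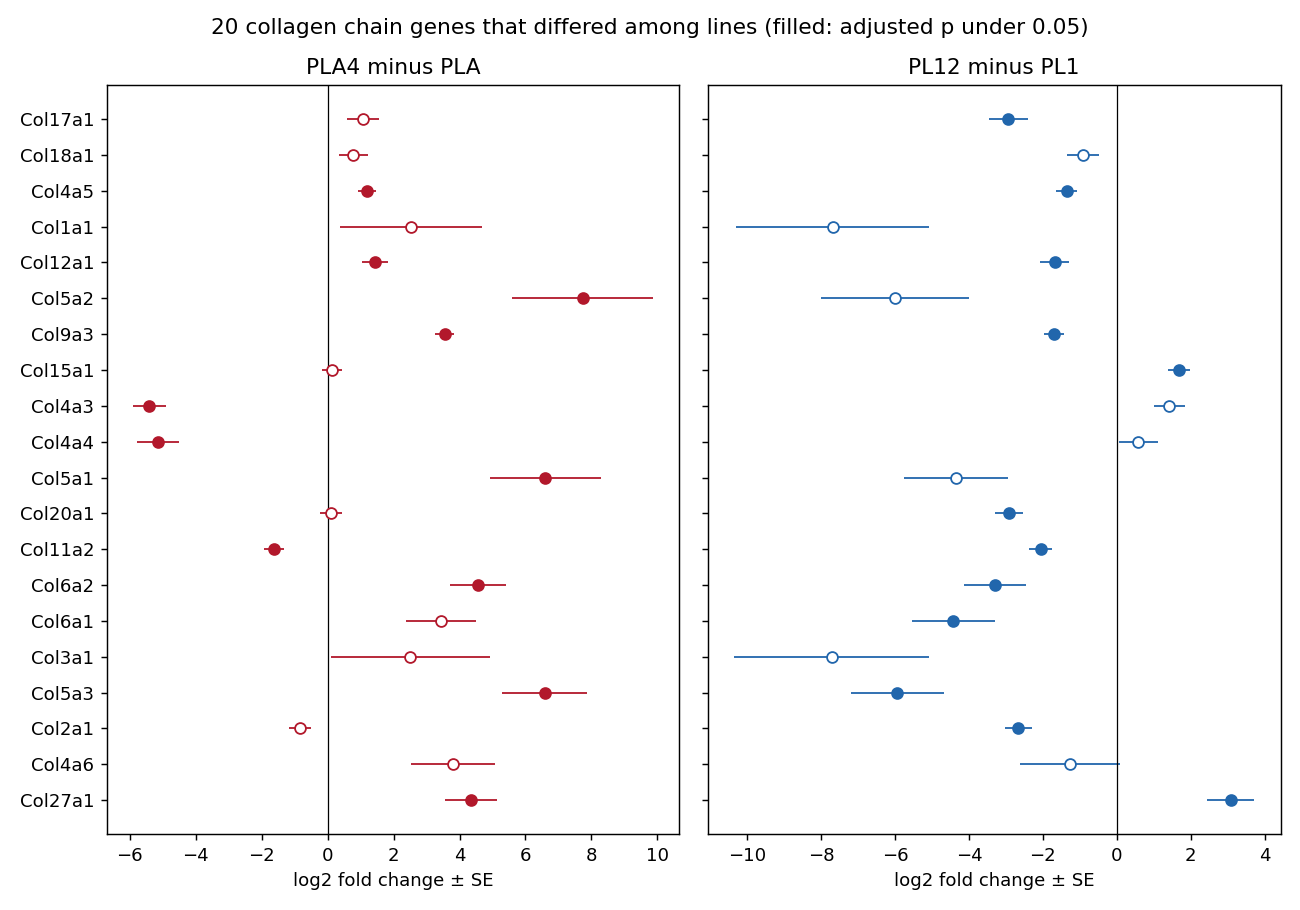
Log2 fold change with its standard error (edgeR, single libraries) of the 20 collagen chain genes that differed among lines, for PLA4 minus PLA (left) and PL12 minus PL1 (right), with filled points at adjusted p under 0.05. Col4a3 and Col4a4 are below -5 in PLA4 minus PLA, and of the filled points in PL12 minus PL1 only Col15a1 and Col27a1 are positive.

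Collagen genes also differed between the 2 libraries of a line, most of all in PL1. Over 10-fold differences at 1 TPM or more were found for 10 genes in PL1 (Col1a1, Col3a1, Col11a1, Col5a1, Col5a2, Col5a3, Col4a1, Col4a2, Col16a1 and Col8a1), for Col4a2 and Col4a6 in PLA4, and for 0 genes in PLA and in PL12. In PL1 all but Col5a3 were higher in replicate 2. At over 2-fold, 10 genes were higher in PL1 replicate 2 and 5 in replicate 1, among them Col17a1, Col18a1 and Col7a1. In PLA4, 4 were higher in replicate 1 and 2 in replicate 2, which were Col17a1 and Col12a1. The share of all genes this far apart was not counted, so these counts only describe the collagen genes. Genes at large also differed more between these libraries, with a median chi-square of 22.2 in PL1 and 38.3 in PLA4, against 1.76 in PLA and 3.91 in PL12. For collagen genes with 20 counts or more the median was 191.5 in PL1, 90.12 in PLA4, 1.806 in PLA and 4.425 in PL12. Chi-square also grows with a gene's counts, so the 2 sets are not matched.

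Stromal markers were read beside these genes, since fibrillar collagens are typical of fibroblasts. Of 18 fibroblast and stromal markers, 8 and 6 were at 1 TPM or more in PLA4, 5 and 4 in PLA, 6 and 6 in PL12, and 6 and 12 in PL1. The proteoglycan Dcn was at 10.4 TPM, the transcription factor Prrx1 at 6.61 TPM and the receptors Pdgfra and Pdgfrb at 1.26 TPM each in PL1 replicate 2, against 0.02, 0.00, 0.62 and 0.00 TPM in PL1 replicate 1. The fibroblast markers Lum, Thy1, Tcf21 and Dpt stayed at or under 0.01 TPM in both. Fn1 and Acta2 of the same list went the other way, from 618 and 173 TPM in PL1 replicate 1 to 308 and 66.8 TPM in replicate 2. In other lines, Pdgfra was at 1.11 and 1.92 TPM in PLA4, and Prrx1 at 1.41 and 1.09 TPM in PL12. Summed over the 18, the level was 1165 and 1099 TPM in PLA4, 445 and 444 TPM in PLA, 463 and 474 TPM in PL12, and 837 and 509 TPM in PL1, most of it from Fn1 and Acta2. Trp63 was at 127 and 130 TPM in the 2 libraries of PL1, but other epithelial and squamous markers differed between them. Krt14 was at 7414 and 3190 TPM and Krt5 at 3753 and 2013 TPM, while Krt15 went the other way, at 17.6 and 144 TPM. Summed over the 8 epithelial and squamous markers, the level in PL1 was 12291 and 6104 TPM. Of the stromal markers, 6 of 14 tested differed among lines, as did 2 of 3 endothelial, 3 of 4 immune and 6 of 8 epithelial markers, against 52.9% of all genes, and 0 passed in all 4 comparisons of a PLA with a PL line, against 1.99% of all genes. The 8 immune markers summed to 21.5 and 5.99 TPM in PLA4, 59.9 and 57.6 TPM in PLA, 23.6 and 18.5 TPM in PL12, and 3.26 and 15.1 TPM in PL1. Cd68, a lysosomal protein of macrophages, made up most of the sum in PLA, with 41.0 and 39.0 TPM, and the integrin subunit Itgam added 17.2 and 16.1 TPM there. The macrophage receptor Csf1r was at 5.47 and 5.48 TPM and the neutrophil marker Ly6g at 4.46 and 3.22 TPM in PL12, while Adgre1 and Cd3e stayed at or under 0.01 TPM. The part of other cells in the collagen levels of PL1 replicate 2 was not tested, and in bulk RNA more cells of a kind and more RNA per cell cannot be told apart.

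**Figure D5:**
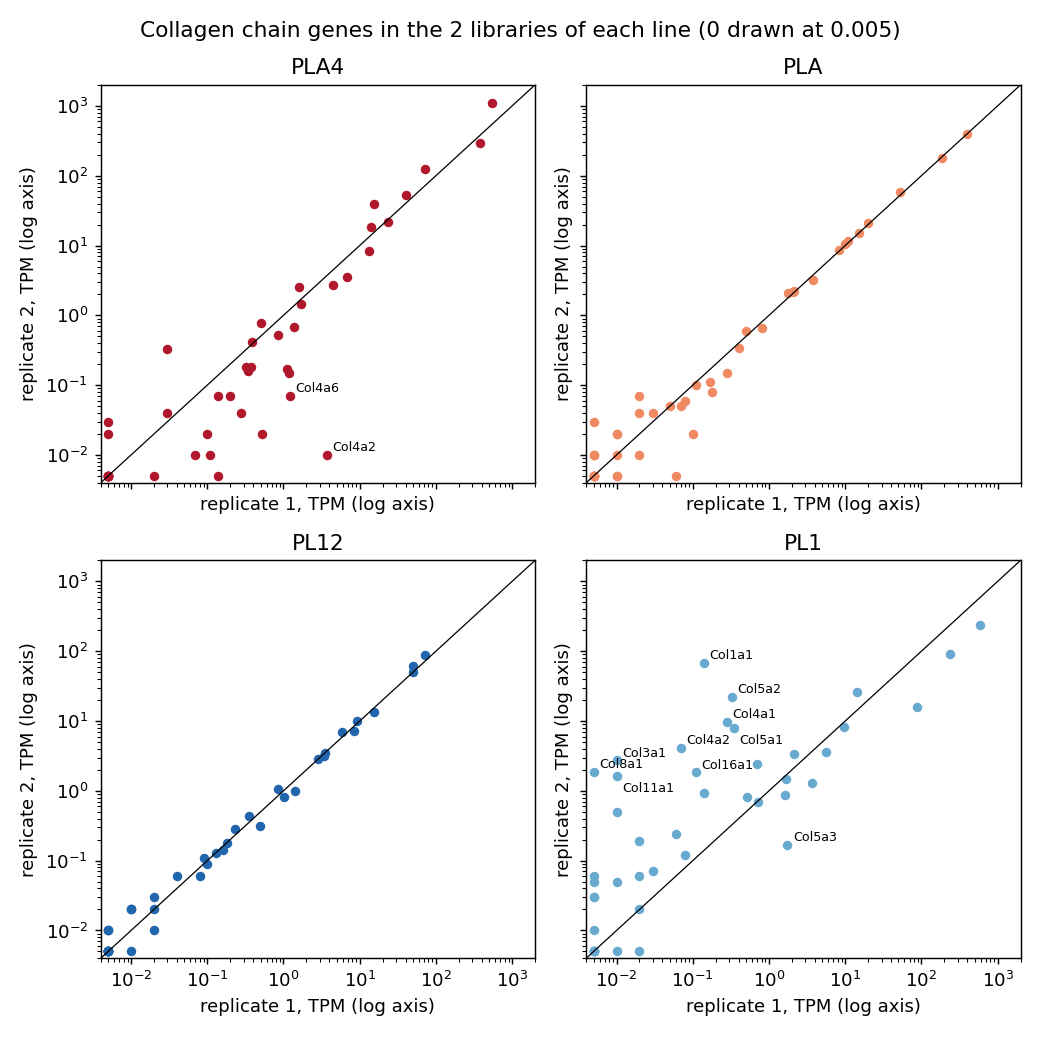
TPM of the 44 collagen chain genes in replicate 2 against replicate 1 of each line on log axes, with the line of equality and 0 drawn at 0.005; labelled genes differ over 10-fold with 1 TPM or more in 1 library. PLA and PL12 lie along the line, PL1 has 10 labelled genes and PLA4 has 2.

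Enzymes and chaperones that fold, modify and crosslink collagen were measured as a list of 34 genes, of which 31 were tested. A difference among the 4 lines was called for 15 of them, near the 52.9% of all genes, and 1 passed in all 4 comparisons of a PLA with a PL line, against 1.99% of all genes. Plod2, the lysyl hydroxylase of collagen telopeptides, was at 10.9 and 11.8 TPM in PLA4, 16.3 and 15.6 TPM in PLA, 41.1 and 38.1 TPM in PL12, and 39.2 and 30.2 TPM in PL1. It was lower in every PLA library than in every PL library, with the change nearest 0 at -1.11 on the log2 scale (edgeR, largest adjusted p = 0.00893), and passed in 14 of 16 alternatives. The crosslinking enzyme Lox, chosen after its values were seen, was at 6.27 TPM in PL1 replicate 2 and at or under 0.31 TPM elsewhere.

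Enzymes that degrade collagen gave 4 of 10 tested genes with a difference among lines, against 52.9% of all genes, and 0 that passed in all 4 comparisons, against 1.99%. The most abundant was the lysosomal protease Ctsl, at 5575 and 6370 TPM in PLA4, 1755 and 1686 TPM in PLA, 1759 and 1589 TPM in PL12, and 3119 and 1648 TPM in PL1. Mmp14, a membrane-bound collagenase, was at 372 and 171 TPM in PLA4, 412 and 411 TPM in PLA, 373 and 361 TPM in PL12, and 333 and 330 TPM in PL1. Mmp15, its relative, was at 77.6 and 52.9 TPM in PLA4, 385 and 387 TPM in PLA, 54.9 and 59.5 TPM in PL12, and 15.6 and 83.9 TPM in PL1. Mmp15 was thus highest in PLA, and passed there against PL12 and PL1 (2.66 and 2.99 on the log2 scale, edgeR, adjusted p = 0.0254 and 0.0243).

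Of the collagen receptors, 6 of 8 tested differed among lines and 1 passed in all 4 comparisons, against 52.9% and 1.99% of all genes. Itga1, the integrin subunit of the receptor that binds type IV collagen, was at 0.39 and 0.35 TPM in PLA4, 0.03 and 0.02 TPM in PLA, 1.14 and 1.06 TPM in PL12, and 1.38 and 1.31 TPM in PL1. It was lower in every PLA library, with the change nearest 0 at -1.98 on the log2 scale (edgeR, largest adjusted p = 0.0113), and passed in 13 of 16 alternatives. Of the other basement membrane components, laminins, nidogens, agrin and perlecan, 8 of 13 tested differed among lines and 1 passed in all 4 comparisons, against the same 52.9% and 1.99% of all genes. It was Lama1, a laminin chain of embryonic basement membrane, at 0.39 and 0.22 TPM in PLA4, 0.27 and 0.22 TPM in PLA, 0.00 and 0.01 TPM in PL12, and 0.05 and 0.03 TPM in PL1. Its levels were higher in every PLA library (change nearest 0, 1.70 on the log2 scale, edgeR, largest adjusted p = 0.0449), and the call was made in 7 of 14 alternatives. Lama1 was low in all lines and near 0 in PL12, so this call is only a description.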

How the data were processed

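The 4 lines' RNA went through SMARTer PCR cDNA synthesis and Nextera XT library preparation, per the labels' protocols. These kits do not mark strand. The authors deposited expected counts (estimated counts per gene, 14.2% of values not whole) and TPM, per the file headers. FastQC, STAR, RSEM and DESeq2 were used on GRCm38, per the submitters' processing notes, with versions and annotation not given in the sources here. RSEM shares reads among similar genes by estimate, which may affect collagen paralogs.

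Expected counts were rounded. The first test summed counts per line (PLA4 and PLA against PL12 and PL1), and the second used all 8 libraries, fitting a mean to each line (4 residual degrees of freedom). Both used edgeR 4.0.16 quasi-likelihood fits (limma 3.58.1, R 4.3.3) with TMM scaling, filterByExpr (minimum count 10, minimum total 15) and Benjamini-Hochberg adjustment over all genes at 0.05. The SE given with an edgeR log2 fold change was derived from the test. It is the absolute log2 fold change divided by the square root of the quasi-likelihood F statistic. Alternatives were DESeq2 1.42.0 and its size factors, no filter, limma on log2(TPM + 1) and log2(TPM + 0.1) with TPM of 0.5 or more in 2 columns, a replicate block, and leaving out libraries or lines. The tests were checked on simulated counts that had the spread between libraries of a line, not that between lines. The check set no recovery limit for the test on summed counts, so it does not say what that test could have found. Coordinates are from GENCODE M21, where 41 of 44 identifiers matched with their version.

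Values in every library are given for the 20 collagen genes with the highest line mean, for those called in all 4 comparisons or on summed profiles, and for those over 10-fold apart between libraries of a line with the higher at 1 TPM or more. From the lists of processing enzymes, degrading enzymes, receptors and other basement membrane components, members called in all 4 comparisons are named, else the 3 with the highest level, and marker lists are given as counts and sums. Members and lists were chosen with earlier results of these data known.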

Additional observations from a re-analysis of the deposited data

How the results depend on the processing

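No called difference of a collagen gene changed its sign in any alternative run. On summed profiles the count of collagen genes called between PLA and PL lines was 0 in all settings but DESeq2, which called 2 (354 of all genes), and it was 0 to 0 with 1 library left out. The count called in all 4 comparisons of a PLA with a PL line was 1 (Col20a1), 2 with limma on log2(TPM + 1) (Col8a1 added), 7 without PL1 replicate 1 and PLA4 replicate 2, 4 without PL1 replicate 2 and PLA4 replicate 1, and 0 to 3 with 1 library left out (0 without any library of PLA or PL12, 3 without PL1 replicate 1). All-gene counts moved too, from 372 to between 36 and 763 with 1 library left out. Any difference among lines was called for 20 collagen genes, 32 of 35 tested without PL1 replicate 1 and PLA4 replicate 2 (15331 of 19558 genes in all), and 12 to 28 with 1 library left out (4291 to 10992 genes in all). For PL12 minus PL1 the count was 12, 19 without the low-count filter, 27 and 19 without the pairs of libraries just named, and 1 to 21 with 1 library left out. Over all genes it was 4419, and 763 to 6128 with 1 library left out. For PLA4 minus PLA the collagen count was 11, 7 with limma on log2(TPM + 1), 27 and 21 without those pairs, and 3 to 16 with 1 library left out. Over all genes it was 5414, and 1051 to 6618 with 1 library left out. The cause of these shifts was not tested. Replicate numbers are shared by the lines, but the labels do not say that they mark a shared day or culture, and deviations of same-numbered libraries correlated by -0.194 to 0.0148 across genes. With a replicate block the counts were 0 in all 4 comparisons (Col20a1, largest edgeR adjusted p = 0.0802), 15 among lines, 11 for PL12 minus PL1 and 8 for PLA4 minus PLA. The depth of 48857960 counts or more leaves members under 10 counts without a usable comparison.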

Other observations

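A few collagen receptors, chosen after their values were seen, had levels that differed widely among lines. Ddr2, a receptor tyrosine kinase for fibrillar collagen, was at 28.0 and 6.38 TPM in PLA4, 0.38 and 0.49 TPM in PLA, 0.36 and 0.34 TPM in PL12, and 0.38 and 2.53 TPM in PL1. Ddr2 was higher in PLA4 than in PL12 by 5.73 and than in PLA by 5.53 on the log2 scale (edgeR, adjusted p = 0.00871 and 0.0118). PLA4 minus PL1, at 3.93, did not pass (edgeR, adjusted p = 0.0573). Itga2, the other main collagen-binding integrin subunit of epithelium, was at 10.1 and 2.85 TPM in PLA4, 39.8 and 41.0 TPM in PLA, 219 TPM or more in both PL12 libraries, and 8.51 and 11.4 TPM in PL1. PL12, the line lowest in summed collagen TPM, was highest in Itga2, with a log2 fold change of -5.26 for PLA4 minus PL12 (edgeR, adjusted p = 0.00221) and -2.64 for PLA minus PL12 (adjusted p = 0.0126). Ddr1, the epithelial receptor of the same family as Ddr2, was at 169 and 193 TPM in PLA4, 142 and 141 TPM in PLA, 59.6 and 67.7 TPM in PL12, and 115 and 86.3 TPM in PL1.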
